A study of Mus musculus with 4 samples.

Results

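Extracellular adenosine is made, sensed and cleared by a small set of genes, and 9 of them were followed here in surface cartilage of the mouse knee: Nt5e, Entpd1, Adora1, Adora2a, Adora2b, Adora3, Ada, Adk and Slc29a1. They were taken by name from a table of 24421 genes, and all 9 were found. Nt5e came to the set because it was among the genes with the largest excess in operated knees in these same libraries, and the other 8 were added for their place in the pathway. The differences between operated and sham knees are therefore described for all 9 without a test. All 9 passed the filter on low counts that precedes the fit across genes.

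Messenger RNA was counted in 4 libraries from 2 mice of the strain C57BL/6J, here M04 and M05. Surgery, 8 weeks earlier, was destabilization of the medial meniscus (DMM), a model of osteoarthritis, in 1 knee and a sham operation in the other, so each group held 2 libraries. The tissue was the superficial zone of the medial femoral condyle, and ages were not given in the sources used here. Wild type is the genotype on all sample labels, but in the design text of the series M05 is a knockout of an unnamed gene, so M05 against M04 is a contrast of 2 animals and not of genotypes.

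ATP that leaves stressed or loaded cells is broken down at the cell surface in sequence: Entpd1 (CD39) takes ATP and ADP to AMP, and Nt5e (CD73) takes AMP to adenosine. Adenosine then acts on 4 G-protein-coupled receptors, is carried into cells by the equilibrative transporter Slc29a1 (ENT1), and is removed by Ada, which deaminates it to inosine, and by Adk, which phosphorylates it back to AMP. In cartilage, adenosine acting through the receptor encoded by Adora2a is known to restrain catabolic signalling, and mice lacking either that receptor or Nt5e develop osteoarthritis.

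The RNA held much more than cartilage. The total count was 12712425 to 19336628 per library, and 10 haemoglobin rows held 25.7% to 35.3% of the counts. All 8 chondrocyte markers were counted in these libraries, and their summed level was 4448 and 5222 CPM (counts scaled to library size by the TMM method) in the sham and DMM libraries of M04, and 1122 and 3868 CPM in those of M05. The sham library of M05 thus held the least cartilage RNA. Summed over 6 markers, neutrophils stood at 35540 and 35940 CPM in M04 and at 62114 and 52555 CPM in M05, and 6 macrophage markers at 600.0 to 636 CPM. In such bulk samples, fewer cells of a type and less RNA per cell cannot be told apart.

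The upstream sequences of Nt5e and Adora2b are shown because these were the members with the clearest excess and the deepest deficit in a DMM knee. Each run covers 250 bases before to 50 after the start of transcription in RefSeq on GRCm38.p6, on the plus strand, at chr9:88327359-88327658 for Nt5e and chr11:62248734-62249033 for Adora2b. Capitals mark the GC box GGGCGG, the core letters bound by Sp-family factors, on either strand, with neighbouring boxes overlapping where they share letters.
Nt5e: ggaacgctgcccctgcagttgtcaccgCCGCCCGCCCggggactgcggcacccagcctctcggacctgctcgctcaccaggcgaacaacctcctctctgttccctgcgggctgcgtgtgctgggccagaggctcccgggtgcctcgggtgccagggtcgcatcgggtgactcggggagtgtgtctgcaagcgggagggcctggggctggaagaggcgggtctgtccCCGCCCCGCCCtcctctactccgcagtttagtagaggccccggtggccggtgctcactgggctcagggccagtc
Adora2b: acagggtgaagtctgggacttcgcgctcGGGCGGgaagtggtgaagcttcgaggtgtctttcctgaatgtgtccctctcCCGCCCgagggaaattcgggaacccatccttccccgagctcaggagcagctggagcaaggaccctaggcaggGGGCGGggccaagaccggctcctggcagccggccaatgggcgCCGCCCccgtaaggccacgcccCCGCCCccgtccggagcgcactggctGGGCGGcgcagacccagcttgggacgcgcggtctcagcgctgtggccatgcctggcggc

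Nt5e had 4 matches to GGGCGG and Adora2b had 6, and 35.6% of 32817 windows of this length held at least 1. GC content was 71.0% for Nt5e and 70.0% for Adora2b, against a median of 52.7% over all windows. Neither window held the hypoxia core ACGTG (19.6% of windows), the cAMP element TGACGTCA (1.79%) or the AP-1 letters TGANTCA (7.81%), all searched on both strands. A match is only a run of letters, and its absence says only that these letters are not in this window.

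Per transcript length, the transporter was by far the most abundant of the 9, and Nt5e lay among the receptors at the low end. In the authors' FPKM table, Slc29a1 averaged 73.1 FPKM over the 4 libraries (60.7 to 83.6), and no other member came near it. Adk followed with 18.5 FPKM (15.7 to 20.1), above every value of Ada, which averaged 12.2 FPKM (9.72 to 14.8). Entpd1 stood at 9.58 FPKM (9.08 to 9.99), a range that overlaps that of Ada, so this pair was not separated. A gap then separated Entpd1 from Nt5e, at 2.80 FPKM (1.41 to 4.26). Adora3, at 2.56 FPKM (1.66 to 4.28), and Adora2a, at 1.70 FPKM (1.10 to 2.05), overlapped Nt5e and each other. Adora2b averaged 1.07 FPKM (0.202 to 1.97), which overlapped these 3 as well, and Adora1 0.201 FPKM (0.0403 to 0.380), which overlapped Adora2b. This order of means includes the DMM libraries, where Nt5e was high. In the sham libraries Nt5e ranked seventh of the 9, at 1.46 FPKM in M04, below Adora3 (2.58) and Adora2a (2.05), and at 1.41 FPKM in M05, below Adora2b (1.97) and Adora3 (1.73).

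**Figure D1:**
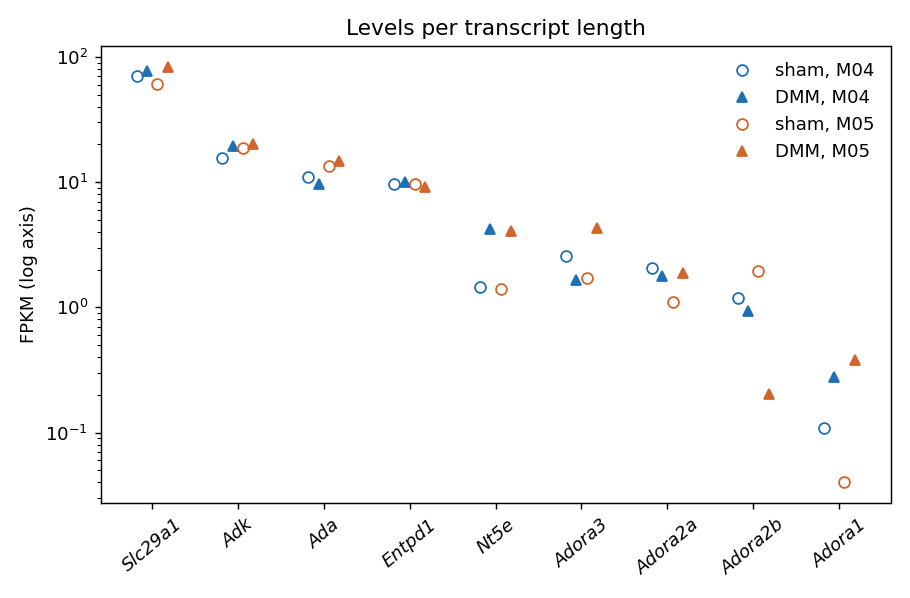
FPKM of each adenosine gene (log axis) in the 4 libraries, with open circles for sham and filled triangles for DMM knees, blue for M04 and orange for M05. Slc29a1 lies at 60.7 to 83.6 FPKM, above all other members, and the 4 receptors and Nt5e lie below 5 FPKM.

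Nt5e, the enzyme that makes adenosine from AMP, was higher in both DMM knees. Counts went from 66 in the sham knee to 215 in the DMM knee of M04, and from 81 to 166 in M05. Scaled for depth this was 4.89 and 14.4 CPM in M04, and 4.75 and 13.6 CPM in M05. Both sham libraries were low and close together, both DMM libraries were high and close together, and the groups did not overlap. The log2 ratio of DMM to sham was 1.53 in M04 (95% counting interval 1.15 to 1.98) and 1.49 in M05 (1.13 to 1.92). The fitted log2 fold change was 1.54 (SE 0.29), a 2.90-fold excess. It was the fourth largest among the 75 genes that passed as higher and averaged 5 CPM or more, a rank that restates how Nt5e was chosen. The counting intervals cover counting error only, since each knee gave 1 library.

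Entpd1, which supplies the AMP, showed no common direction. It stood at 38.8 and 40.7 CPM in the sham and DMM libraries of M04 and at 38.6 and 36.3 CPM in those of M05. DMM was above sham in M04 and below it in M05, and the fitted log2 fold change was -0.01 (SE 0.17). The ratio of Nt5e to Entpd1 in FPKM accordingly went from 0.152 to 0.426 in M04 and from 0.146 to 0.449 in M05. With Entpd1 nearly level, this rise restates the excess for which Nt5e was chosen. Whether the same cells carry both transcripts was not tested.

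**Figure D2:**
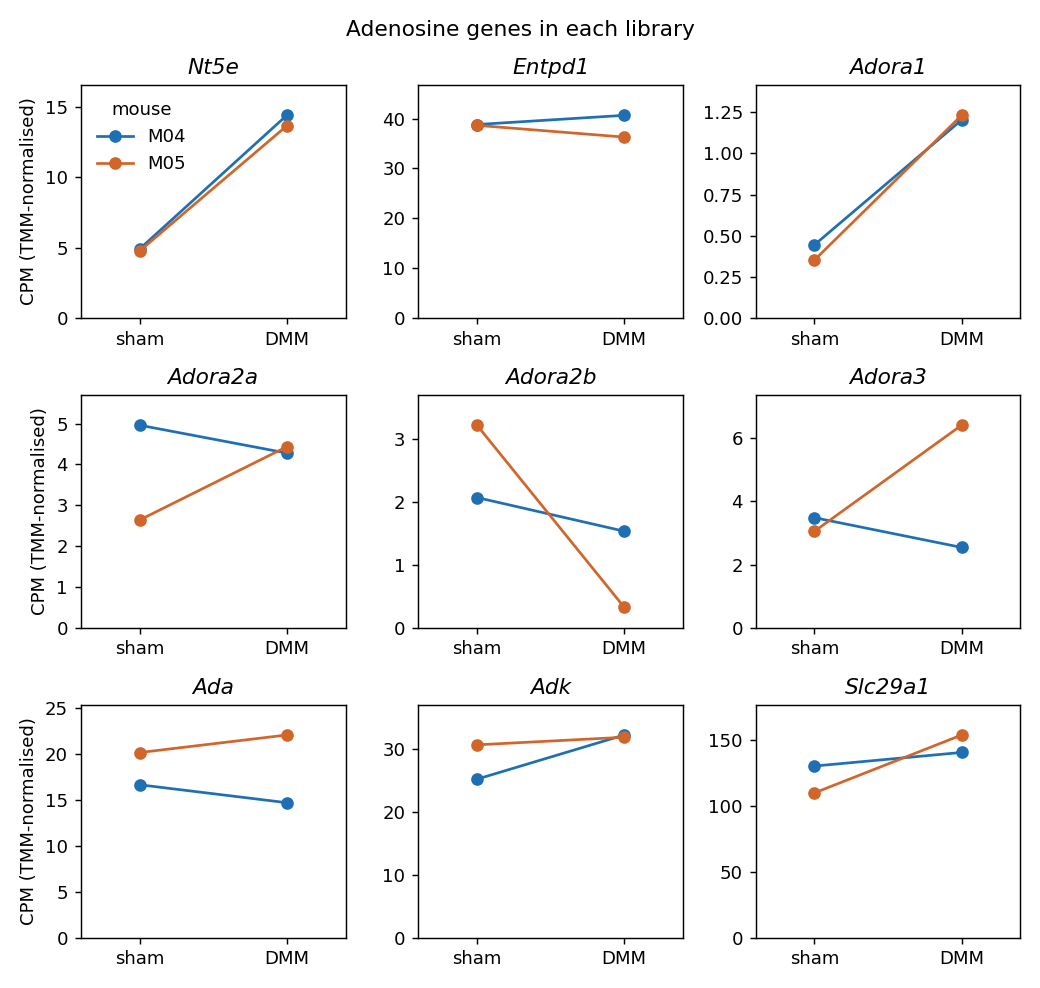
TMM-normalised CPM of each adenosine gene in the sham and DMM knee of M04 (blue) and M05 (orange), 1 point per library, with a line joining the knees of a mouse and a y axis from 0. Nt5e goes from 4.89 to 14.4 CPM (M04) and from 4.75 to 13.6 CPM (M05), while Entpd1 stays between 36.3 and 40.7 CPM.

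The 4 receptors had low counts and moved in different ways. Adora1, the inhibitory A1 receptor, went from 5.5 counts (sham) to 18 (DMM) in M04 and from 5.5 to 15 in M05, or 0.444, 1.20, 0.352 and 1.23 CPM in that order. Both DMM libraries lay above both sham libraries. The log2 ratios were 1.20 in M04 (counting interval 0.04 to 3.06) and 1.48 in M05 (0.36 to 3.46), with a fitted value of 1.60 (SE 0.91), and intervals this wide leave its size poorly known. Adora1 shares its locus with Mybph, a muscle gene on the opposite strand, which had 1.5, 8, 7.5 and 5 counts in the same order. Whether strand was kept is not given in the sources used here, so reads of the pair cannot be told apart. The ratio of FPKM to CPM varied 2.69-fold across libraries for Adora1, and no more than 1.08-fold for the members other than Adora1 and Adora3.

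Adora2b, the A2B receptor, which responds to high adenosine and raises cAMP, was lower in the DMM knees. Counts went from 28 to 23 in M04 and from 55 to 4 in M05. This was 2.07 and 1.54 CPM in M04, and 3.23 and 0.328 CPM in M05. Both DMM libraries lay below both sham libraries, but most of the difference came from the mouse M05. The log2 ratio was -0.40 in M04, with a counting interval from -1.29 to 0.42 that spans 0, and -2.85 in M05 (-5.22 to -1.86). The fitted log2 fold change was -1.62 (SE 0.68), and it stood at -0.79 without the DMM library of M05, in a fit without the mouse term, beside -1.47 with all 4 libraries and no mouse term.

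For Adora2a, whose receptor raises cAMP in leukocytes and chondrocytes, and for Adora3, the A3 receptor, the ratios of M04 and M05 pointed in opposite directions. Adora2a stood at 4.96 and 4.28 CPM in the sham and DMM libraries of M04, and at 2.64 and 4.43 CPM in those of M05. Its sham library of M05 was the low one of the 4. The log2 ratios were -0.21 (-0.73 to 0.30) in M04 and 0.72 (0.15 to 1.35) in M05. Adora3 stood at 3.48 and 2.54 CPM in M04 and at 3.05 and 6.40 CPM in M05, where the DMM library was the high one. Its log2 ratios were -0.43 (-1.11 to 0.19) and 1.04 (0.55 to 1.61) in the same order. Adora3 overlaps Tmigd3 on the same strand, which had 44, 19, 56.5 and 45.5 counts in the sham and DMM libraries of M04 and then M05, so some reads may have been divided between these genes. The A3 receptor is known from mast cells and granulocytes, and 5 mast cell markers summed to 44.8 and 46.5 CPM in M04 and to 44.0 and 39.3 CPM in M05. Nearly all of that sum was Cpa3 (24.2 to 27.2 CPM) and Kit (12.6 to 20.1 CPM), while the mast cell proteases Tpsb2 and Mcpt4 had at most 4 and 5 counts and were each at 0 in 2 of the 4 libraries. Their part in the Adora3 values was not tested.

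The mix of receptor transcripts accordingly differed from library to library. Of the summed receptor FPKM, Adora3 held 43.6% (sham) and 35.7% (DMM) in M04, and 35.7% and 63.6% in M05. Adora2a held 34.6%, 38.3%, 22.8% and 27.7% in that order, and Adora2b 20.0%, 20.1%, 40.7% and 3.0%. Adora1 held 0.8% to 5.9%. The sum itself ranged from 4.66 to 6.73 FPKM, with DMM below sham in M04 and above it in M05.

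Slc29a1, which moves adenosine across the plasma membrane in either direction, stood at 130.3 and 140.6 CPM in the sham and DMM libraries of M04 and at 109.9 and 153.9 CPM in those of M05. Both DMM libraries were above both sham libraries, though the step in M04 was small. The log2 ratios were 0.11 (0.02 to 0.20) and 0.49 (0.39 to 0.58), and they were 0.22 and 0.61 when scaled by total counts without TMM. Erythroid cells are known to carry much of this transporter. Of their markers, the haemoglobin gene Hbb-bt was at 17886 and 16183 CPM in the sham and DMM libraries of M04 and at 31144 and 20325 CPM in those of M05, lower in each DMM library. Alas2, Slc4a1 and Klf1 were also lower in the DMM library of M04, but in M05 they were higher there, by at most 1.07-fold. Their part in the Slc29a1 values was not tested.

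The enzymes that remove adenosine differed by at most 1.28-fold between the knees of a mouse. Adk stood at 25.3 and 32.3 CPM in the sham and DMM libraries of M04, and at 30.7 and 31.9 CPM in those of M05. Its sham library of M04 was the low one, and the log2 ratios were 0.35 (0.15 to 0.56) and 0.06 (-0.14 to 0.25). Ada had 16.7 and 14.7 CPM in M04 and 20.2 and 22.1 CPM in M05, with log2 ratios of -0.18 (-0.45 to 0.09) and 0.13 (-0.10 to 0.37). For Ada the mice were set apart more than the knees. The ratio of Ada to Adk in FPKM was 0.699 and 0.496 in M04 and 0.715 and 0.734 in M05, so the DMM library of M04 was the one that stood lower.

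**Figure D3:**
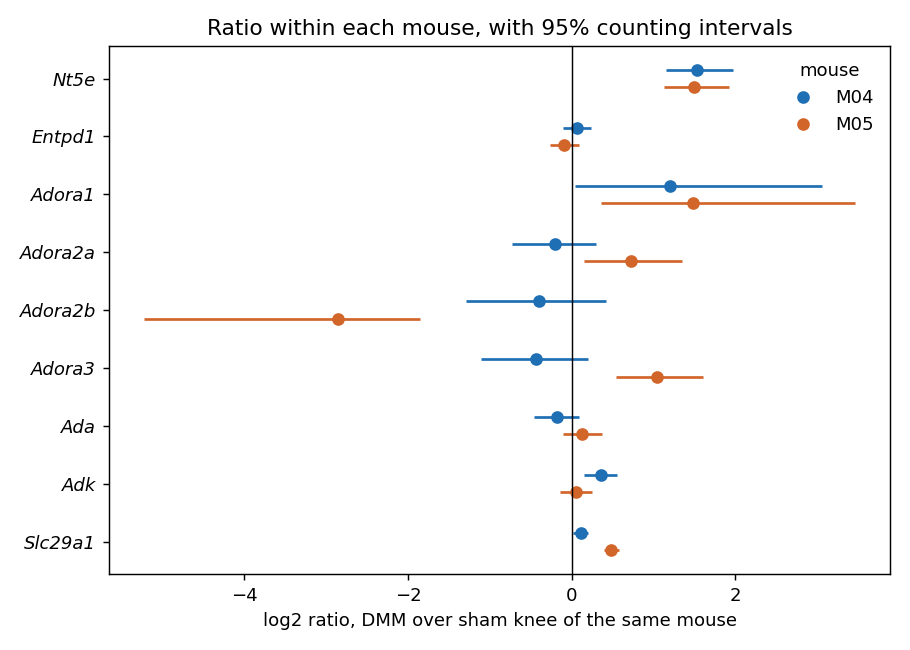
log2 ratio of DMM to sham knee for each adenosine gene in M04 (blue) and M05 (orange), with 95% exact intervals for counting error only. Nt5e has 1.53 and 1.49, and Adora2b has the lowest value, -2.85 in M05, with an interval from -5.22 to -1.86.

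Counted together, 1 of the 9 members, Nt5e, was among the genes past an adjusted p of 0.05 as higher in DMM knees, against 0.633% of the 13103 genes tested, and no member was among those lower, against 0.0153%. Because Nt5e was picked from this contrast, nothing is read from that count. The DMM libraries lay above both sham libraries for 4 members, Nt5e, Adora1, Adk and Slc29a1, against 13.2% of all genes, and below both for Adora2b alone, against 12.3%. The ratio had the same sign in both mice for 5 of the 9, against 47.1% of all genes. Nt5e adds to the 4 and to the 5 through the way it was chosen, so nothing is read from these counts either. The median fitted log2 fold change over all genes was -0.01.

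The comparison between the animals did not enter the choice of members. With surgery held in the model, no member passed as different between M05 and M04, against 2.60% of all genes. For Nt5e the log2 fold change of M05 against M04 was -0.06 (SE 0.29, adjusted p = 0.966 by edgeR's quasi-likelihood test), with an unadjusted 95% interval from -0.62 to 0.50. Ada had the smallest p of the 9, at 0.43 (SE 0.21, adjusted p = 0.320), and both its M05 libraries were above both M04 libraries, as for 22.5% of all genes. Entpd1 was the one member with both M05 libraries below both of M04, as for 22.8% of all genes, with a fitted log2 difference of -0.08 (SE 0.17; edgeR adjusted p = 0.897). The intervals were widest for the receptors: -1.86 to 1.63 for Adora1, -1.78 to 0.86 for Adora2b, -1.26 to 0.41 for Adora2a and -0.29 to 1.44 for Adora3. Differences of over 2-fold between these animals are thus within the interval for each receptor.

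Chondrocyte and fibroblast RNA also moved between the libraries, and the Nt5e values can be set beside them. Per 1000 CPM of the 8 summed chondrocyte markers, Nt5e was at 1.10 (sham) and 2.75 CPM (DMM) in M04, and at 4.23 and 3.52 CPM in M05. The gain over this sum was thus present in M04 and absent in M05, where the sum itself climbed from 1122 to 3868 CPM. Col2a1 carried most of it, with 3344 and 3822 CPM in M04 and 726 and 2739 CPM in M05. By the ratio within M05, the DMM excess of Nt5e (2.82-fold) was above that of Sox9 (2.65), Hapln1 (2.41), Matn3 (2.18) and Col11a1 (1.87). It was below that of Acan (4.3), Col2a1 (3.77), Comp (3.10) and Col9a1 (2.99). Relative to 5 summed superficial-zone markers, the DMM value of Nt5e was 2.73 times its sham value in M04 and 1.07 times in M05. Set against 6 summed markers of synovial and tendon fibroblasts, which were at 57.7 and 76.4 CPM in M04 and 57.8 and 69.5 CPM in M05, Nt5e went from 84.7 to 188 per 1000 in M04 and from 82.2 to 196 in M05, a gain of 2.22 and 2.38 times. One marker, Pi16, carried most of that fibroblast sum, with 39.9 and 34.9 CPM in M04 and 45.2 and 43.2 CPM in M05, and it was slightly lower in the DMM library of each mouse. Without Pi16, a choice made after seeing the data, the gain was 1.26 and 1.37 times. Dpt, a matrix protein of fibroblasts, had 3.48 (sham) and 18.1 CPM (DMM) in M04 beside 2.58 and 8.95 CPM in M05, and Clec3b climbed from 2.07 to 6.89 CPM and from 0.821 to 5.50 CPM. Set against Dpt alone, Nt5e was lower in the DMM knees, at 0.567 and 0.827 times its sham value. Of the tested markers, 4 of 8 for chondrocytes and 2 of 5 for fibroblasts (Dpt and Clec3b) passed as higher in DMM knees, against 0.633% of all genes tested, and none was at 0 in all libraries. Skeletal muscle markers went the opposite way in the mice, 143 and 382 CPM for sham and DMM of M04, 505 and 156 CPM for M05. The part of each cell type in the Nt5e values was not tested.

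The genes whose pattern was most like that of Nt5e were found by the Euclidean distance between log2 CPM values centred per gene over the 4 libraries, among 9209 other genes averaging 5 CPM or more. Since Nt5e was chosen for its excess in DMM knees, genes near it share that excess by construction. Tppp3, a tubulin-binding protein used as a marker of tendon sheath cells, was the nearest (distance 0.26), with 6.74 and 17.5 CPM in the sham and DMM libraries of M04 and 6.39 and 14.9 CPM in those of M05. Next came Fxyd3 (0.39), a regulator of the sodium pump, Cyr61 (0.45), a matricellular protein of the CCN family, Sbsn (0.47), and Nbl1 (0.49), a secreted BMP antagonist. Their log2 ratios ranged from 0.99 to 1.36 in M04 and from 1.18 to 1.75 in M05.

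**Figure D4:**
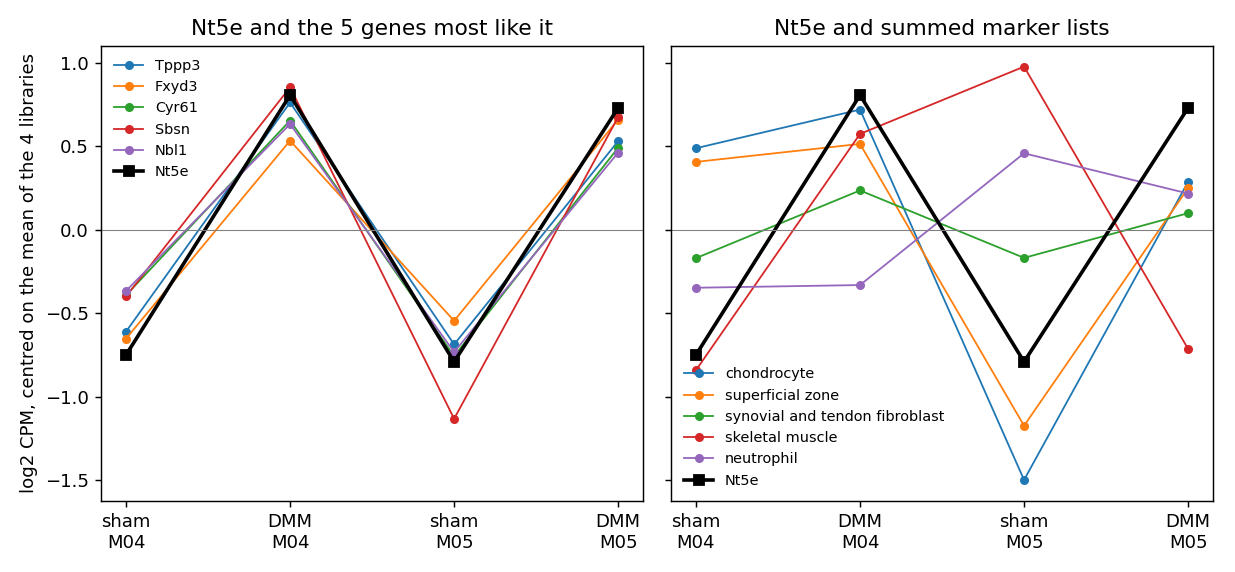
log2 CPM centred on the mean of the 4 libraries, for Nt5e (black squares) with the 5 genes nearest to it (left) and with 5 summed marker lists (right); points are libraries, and lines only join them. Nt5e is low in both sham and high in both DMM libraries, whereas the chondrocyte sum is lowest in the sham library of M05 (1122 CPM) and muscle goes in opposite directions in the mice.

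Beyond the 9 members, 66 further genes in 7 lists covered the release of ATP, its breakdown, nucleoside transport, purine salvage, nucleotide receptors, genes induced by cAMP and stromal surface proteins that are used beside CD73 to define mesenchymal cells. Of these, 65 were found and 52 were tested. In DMM knees 2 were higher and none was lower past an adjusted p of 0.05 by edgeR, against 0.633% and 0.0153% of all genes. The lists were drawn up with earlier results of these data known, so these calls are given as description. The median log2 fold change of the 52 was -0.05, beside -0.01 over all genes tested.

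Breakdown enzymes outside the set gave 1 of the 2 calls. Alpl, tissue-nonspecific alkaline phosphatase, which can also take AMP to adenosine and which mineralising cells carry, was at 127 and 193 CPM in M04 and at 81.8 and 145.7 CPM in M05. In DMM knees its fitted log2 level rose by 0.72 (SE 0.15; edgeR adjusted p = 0.00115). With all 4 libraries but no mouse term the value was 0.70 and the call was already lost (edgeR adjusted p = 1). The mouse term is also missing from each fit on 3 libraries: the value was 0.41 without the sham library of M05, 0.48 without the DMM library of M04 and 0.88 without the DMM library of M05, none of them called, and 1.05 without the sham library of M04, which was called. Enpp1, which makes AMP and pyrophosphate from ATP and was singled out after its values were seen, missed the threshold at 0.74 (SE 0.21, edgeR adjusted p = 0.058). The other 6 tested genes of this list did not pass. Alpl was also lower in M05 than in M04 (-0.52 on the log2 scale, SE 0.15; adjusted p = 0.0313 by edgeR), but with all 4 libraries and no surgery term it was -0.50 and no longer called (edgeR adjusted p = 0.648). It was also not called with RLE size factors (0.0773 by edgeR), without haemoglobin rows (0.109), without a low-count filter (0.0548), with DESeq2 (0.0946) or with limma. Fits that leave out a library lack the surgery term too, and they gave -0.97 without the DMM library of M05 to -0.14 without the sham library of M05, with no call.

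Stromal surface proteins gave the other call. Ly6a (Sca-1), a surface marker of mouse stromal progenitors, endothelium and blood stem cells, was at 21.7 and 31.4 CPM in M04 and at 16.9 and 38.7 CPM in M05. Its fitted log2 level rose by 0.86 (SE 0.19; edgeR adjusted p = 0.00147). With all 4 libraries but no mouse term it was 0.86 and not called (edgeR adjusted p = 1), and without haemoglobin rows it was 0.87 and just missed the threshold (0.0576). In the fits that leave out a library, which have no mouse term, it was called without the sham library of M04 (1.05) and not without the DMM library of M04 (1.01), the sham library of M05 (0.69) or its DMM library (0.70), so a missing term and a missing library cannot be told apart there. None of the other 8 genes tested with it passed, and the median of the list was 0.14.

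The remaining 5 lists gave no call for surgery. Of the ATP release list, 3 genes were tested: Gja1, the connexin 43 hemichannel, had a log2 fold change of 0.27 (SE 0.21) its ratio being 1.01 in M04 but -0.50 in M05, and the pannexin Panx1 had 0.23 (SE 0.23). Among the 3 tested nucleoside transporters, Slc29a3 had -0.20 (SE 0.19) and Slc28a2 had -0.13 (SE 0.19). The third, Slc29a2 (ENT2), named after its values were seen, had the largest value of the 3, 1.74 (SE 0.86; edgeR adjusted p = 0.918), on 15 counts (sham) and 18 (DMM) in M04, and 2 and 27 in M05. The list drawn up for purine salvage had 12 genes tested and a median of -0.04. It was led in level by Pnp, which splits inosine (-0.09, SE 0.15), and Nt5c3, a cytosolic nucleotidase (-0.11, SE 0.15). Whether Nt5c3 acts on purines was not tested. Nucleotide receptors, with 10 tested and a median of -0.13, included the ATP-gated channels P2rx1 (0.16, SE 0.17) and P2rx4 (0.06, SE 0.21).

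Genes that cAMP induces, read here beside the receptors that raise it, had a median log2 fold change of -0.07 over 7 tested members, and none passed for surgery. Per1, a clock gene that cAMP also induces, differed between the animals instead, with 20.4 and 20.0 CPM in the sham and DMM libraries of M04 and 10.1 and 9.52 CPM in those of M05. In M05 it was lower, at -1.04 on the log2 scale (SE 0.23; edgeR adjusted p = 0.00135). Per1 was also called with RLE size factors, without haemoglobin rows and without a low-count filter. With limma it was not (limma adjusted p = 0.545 on log2(FPKM + 1) and 0.556 on log2(FPKM + 0.1)). With all 4 libraries but no surgery term the edgeR value was nearly the same at -1.03, and the call was lost (edgeR adjusted p = 0.0975). In the fits that leave out a library, which lack that term too, it ranged from -1.08 to -0.99, and it was called without the DMM library of M05 only.

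**Figure D5:**
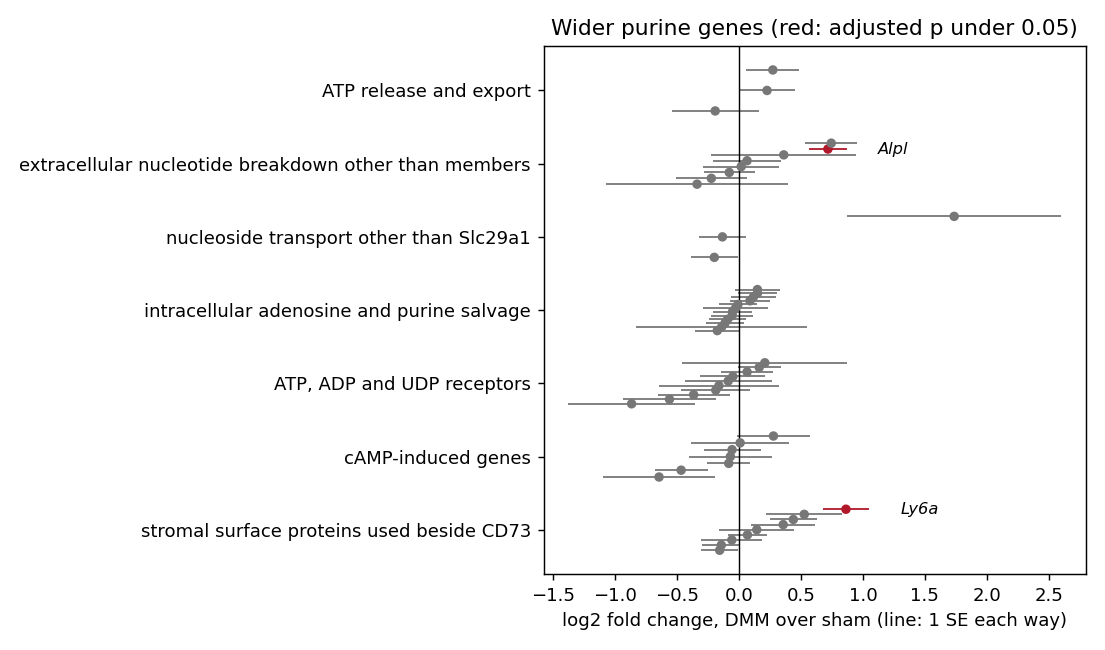
Fitted log2 fold change of DMM against sham knees for the 52 tested genes of 7 purine and stromal lists, with lines of 1 SE each way, and in red the genes past an adjusted p of 0.05. The 2 red points are Alpl (0.72) and Ly6a (0.86), and the medians of the other 5 lists lie between -0.13 and 0.23.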

How the data were processed

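The members and gene lists were chosen with earlier results of these data known. Per the submitters' processing notes, reads were placed on GRCm39 (mm39); which aligner and counter were used, and whether strand was kept, is not given in the sources used here. The count table holds estimated counts deposited by the authors, of which 9.21% to 10.9% per library are not whole. Its second set of 4 columns equals the first in all 24421 rows, so each library was used once. The authors' FPKM values served for levels between genes and for alternatives.

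After rounding, edgeR 4.0.16 (R 4.3.3) tested the estimated counts (filterByExpr, TMM, robust quasi-likelihood fit with mouse and surgery as terms, Benjamini-Hochberg over 13103 genes). The labels state that both knees come from the same animal, and same-mouse deviations correlated at 0.126. The fit leaves 1 residual degree of freedom, and 83.0% of genes took their spread wholly from the trend across genes, so p-values do not measure how far the mice differ. Each standard error is |log2 fold change| / sqrt(F). Ratios within a mouse used log2 CPM with a prior count of 2, with exact binomial 95% intervals from the counts. DESeq2 1.42.0 and limma 3.58.1 gave alternatives. Named genes were the members, the list genes past the threshold (or the 2 of highest mean CPM in lists without one) and the 5 genes nearest to Nt5e. The sham samples are described as DMM knees in 1 free-text field, and their titles and treatment field were followed instead. Chromosomes and overlapping genes come from GENCODE on GRCm38; of the members, 8 had a RefSeq promoter.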

Additional observations from a re-analysis of the deposited data

Results flagged for a closer look

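For 4 of the 9 members and 4 of the further purine genes named, the ratio of DMM to sham had opposite signs in M04 and M05, as it had for 52.9% of all 13103 genes tested. With 1 pair of knees per mouse, the difference between the mice was not tested. The intervals below cover counting error only, so their separation is description and not a test. As the log2 ratio in M05 minus that in M04, it was 1.47 for Adora3, 0.93 for Adora2a, 0.31 for Ada and -0.16 for Entpd1. Among the further genes it was -1.50 for Gja1, 0.46 for P2rx1, -0.29 for Slc28a2 and 0.16 for P2rx4. The counting intervals of the 2 ratios did not overlap for Adora3 (-1.11 to 0.19 in M04, 0.55 to 1.61 in M05). Nor did they for Gja1 (0.77 to 1.26, and -0.78 to -0.22) or P2rx1 (-0.25 to 0.11, and 0.22 to 0.57). They overlapped for Adora2a, Ada, Entpd1, Slc28a2 and P2rx4. Separate intervals were not particular to genes of opposite sign. With the same sign in both mice, they were also separate for Adora2b (-1.29 to 0.42 in M04, -5.22 to -1.86 in M05) and Slc29a1 (0.02 to 0.20, and 0.39 to 0.58). Among the further genes named, this held for Alpl, Ly6a and Pnp. The share of all genes with separate intervals was not counted.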

How the results depend on the processing

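The log2 fold change of Nt5e lay between 1.09 and 1.57 under all 13 alternatives, the lowest being on log2(FPKM + 1), which understates low genes. It was past the threshold in 6 of these 13, a count given as description since the gene was chosen for it. Adora1 had a log2 fold change of 0.30 on that scale, and the ranges below are log2 fold changes too. The sign also held under every alternative run for Adora1, Adora2b, Adk and Slc29a1, and it turned in at least 1 fit without a library and without the mouse term for Ada (-0.33 to 0.27), Adora2a (-0.19 to 0.72), Adora3 (-0.36 to 0.98) and Entpd1 (-0.09 to 0.07). No member was called between the mice in any of the 105 values from alternatives. Counts over all genes depended on the fit. For surgery, the main values were 83 higher and 2 lower. Without the mouse as a replicate block these became 0 and 0 (322 genes at an unadjusted p under 0.05 in edgeR), with RLE size factors 35 and 0, without haemoglobin rows 23 and 0, with DESeq2 13 and 0, and with limma on log2(FPKM + 1) or log2(FPKM + 0.1) 0 and 0 (496 and 473 at an unadjusted p under 0.05). Lower genes numbered 1 without a filter and 4 at a mean of at least 5 CPM. For M05 against M04, the main values of 126 higher and 215 lower became 0 and 0 without the surgery term (1819 unadjusted), 62 and 124 with RLE, 32 and 71 without haemoglobin rows, 33 and 24 with DESeq2, and 0 and 0 with limma in either form (1162 and 1117 unadjusted). Leaving out 1 library, in fits without the other term, gave 0 to 95 higher and 0 to 26 lower for surgery, and 0 to 200 higher and 0 to 131 lower for the mice. The 2 higher genes of the purine and stromal lists became 0 without the block, with DESeq2 and with limma. They numbered 1 without haemoglobin rows and 3 at a mean of at least 5 CPM. The cause was not tested. Of the 5 genes nearest to Nt5e, 3 were also among the 5 nearest on log2(FPKM + 1) and 0 among the 5 with the highest Pearson correlation, which ignores the size of a change. Low counts limit the receptors most.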
